A study of Sus scrofa with 8 samples.

Results

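MEF2A, MEF2C and MEF2D are transcription factors of the myocyte enhancer factor 2 family. They were taken by name from the gene tables of 8 single-cell matrices, where they are 3 of 21301 genes, and all 3 were listed in every matrix. Their unique molecular identifier (UMI) counts, in which each UMI stands for a captured RNA molecule, were followed across 4 stages and across cells gated by marker genes. The libraries were 10x Chromium 3′ libraries of pig embryos at E16, E18, E21 and E28, with 1 ZZ (Tibetan) and 1 DZ (Duroc and Tibetan cross) library at every stage. Somites were taken at E16, E18 and E21 and at E28 the myotome, from which skeletal muscle arises, so that the tissue is tied to the E28 stage. Each library held a mixture of 5 embryos of a sow. Because every combination of stage and cross was measured once, p-values below measure the spread between libraries that also differ in stage.

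MEF2 proteins bind an A/T-rich DNA element through a MADS box and switch on contractile genes together with the MyoD family in skeletal muscle and with cardiac factors in the heart. Class IIa histone deacetylases hold them silent, and calcium-dependent and p38 kinases release them. MEF2C is the member best known from the early heart, from endothelium and from neural crest, while MEF2A and MEF2D are known as more widely expressed members.

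On Sscrofa11.1, RefSeq places MEF2A (ENSSSCG00000028771) on the plus strand at chr1:138398270-138508639, MEF2C (ENSSSCG00000014149) on the minus strand at chr2:96122407-96296927 and MEF2D (ENSSSCG00000006482) on the plus strand at chr4:93581563-93616980. RefSeq gives MEF2C 40 distinct transcript starts, MEF2D 4 and MEF2A 2. The counts are of 3′ ends and do not tell these starts apart. The MEF2 consensus, a 10-base element searched on both strands at once because it is its own reverse complement, was looked for from 250 bases before to 50 bases after each start. It was found at 3 of the 40 MEF2C starts, 2 of which share an element, and at none of the starts of MEF2A or MEF2D. Among the windows at the gene starts of 19572 protein-coding genes, 2.87% held it, against 6 of 22 windows (27.3%) for the genes known as MEF2 targets in skeletal muscle described below. The E-box CANNTG, the element of the MyoD family, was found in 67.8% of all windows and in 19 of these 22 (86.4%). Of the 13 windows of genes known as targets in heart or vessels, 1 (7.69%) held the MEF2 consensus and 5 (38.5%) the E-box, and of the 23 windows of MEF2 partners and regulators none held the consensus and 12 (52.2%) the E-box. A match of letters is a description and not a binding site. The sequences below show the element, in capitals, with 20 bases on either side at 1 MEF2C start and at the starts of 5 target genes whose RNA was tested here.

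MEF2C, minus strand, chr2:96218863-96218912, in an intron of the longer MEF2C transcripts: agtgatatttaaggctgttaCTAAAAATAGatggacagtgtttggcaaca
MYOM1, plus strand, chr6:103451059-103451108, in no annotated exon: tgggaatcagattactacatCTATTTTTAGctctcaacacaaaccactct
MYOZ2, minus strand, chr8:104609368-104609417, in an intron of SEC24D: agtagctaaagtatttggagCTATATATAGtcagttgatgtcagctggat
MYPN, plus strand, chr14:71283197-71283246, in no annotated exon: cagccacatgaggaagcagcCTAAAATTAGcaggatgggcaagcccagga
SRPK3, plus strand, chrX:124524040-124524089, in no annotated exon: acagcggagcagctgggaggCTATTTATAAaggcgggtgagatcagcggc
KLF2, minus strand, chr2:61273129-61273178, in no annotated exon: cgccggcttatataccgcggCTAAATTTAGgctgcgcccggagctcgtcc

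After removal of low-quality barcodes and likely doublets, 74147 cells remained, with 5436 to 10956 cells and 39861155 to 57717808 UMIs per library and a median of 3399.5 to 6168 UMIs per cell. In E16 ZZ 39.2% of barcodes were over the mitochondrial limit of 10%, against 1.05% to 9.15% in the other libraries. MEF2A gave 19201 UMIs, MEF2C 17695 and MEF2D 4893. MEF2B, the other family member, gave 549 UMIs in 0.738% of cells and was not followed. Cells were gated by markers that do not include any MEF2 gene, so no MEF2 UMI was used to choose cells, although muscle markers such as MYOG are known to work together with MEF2 factors. The skeletal gates held 967 PAX3+ progenitor-like cells (PAX3 with TCF15, MEOX1 or DMRT2), 1111 PAX7/MYF5 progenitor-like cells, 519 MYOD1+ myoblast-like cells and 1339 myocyte-like cells (at least 3 of MYOG, MYMK, MYH3, CHRNA1, TNNT3 and NEB), and the heart gate held 189 cardiac muscle cell-like cells. Genes outside the marker lists that led the myocyte-like gate included MYLPF, TNNC2, MYL1 and ACTA1, and those that led the cardiac gate included TNNT2, MYH7, MYL4 and CSRP3. MYH6, NPPA and MYL7 of the cardiac markers and SOX2 of the neural progenitor markers were not among the genes analysed here, and the neural progenitor gate was therefore not used. Cells of 2 or more lineages (6557) and cells in no gate (36372) stayed out of the comparisons between gates and entered only the values over all cells of a library. Of 90688 barcodes, 993 sequences occurred in 2 libraries and 8 in 3 or more. Levels are given as CPM, the UMIs of a gene scaled to the total UMIs summed over the cells of a gate in a library, for sums of at least 20 cells.

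The skeletal gates show a late and steep rise of MEF2C. In PAX3+ progenitor-like cells MEF2C was at 5.15 and 1.95 CPM in E16 ZZ and E16 DZ, 7.96 and 5.10 CPM in E18 ZZ and E18 DZ, and 33.1 and 60.0 CPM in E21 ZZ and E21 DZ. PAX7/MYF5 progenitor-like cells had 5.10 and 8.58 CPM at E18, 27.3 and 40.8 CPM at E21 and 15.7 and 11.6 CPM at E28, in the order ZZ and DZ. In both progenitor gates the E21 libraries were the highest. The E16 and E18 values of PAX3+ progenitor-like cells rest on 2 to 16 UMIs each. Those of PAX7/MYF5 progenitor-like cells at E18 rest on 2 and 3 UMIs. MYOD1+ myoblast-like cells, committed cells that express the determination factor MyoD, had 49.7 and 75.1 CPM at E21 and 29.0 and 34.4 CPM at E28. Myocyte-like cells had 557 and 716 CPM at E18, 776 and 1009 CPM at E21 and 519 and 565 CPM at E28. The lowest myocyte-like library was above the highest library of every other skeletal gate. How many of all genes separate the gates in this way was not counted.

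MEF2A rose at the same step from a higher start. The mean of MEF2D started lower and was higher in each next gate, with its largest step to myocyte-like cells. The gates draw on different stages, and the PAX3+ progenitor-like sums held 2 to 17 MEF2D UMIs each. From PAX3+ to PAX7/MYF5 progenitor-like cells MEF2D went from 8.45 to 17.8 CPM in E18 ZZ and from 6.80 to 14.3 CPM in E18 DZ. It went from 8.70 to 9.08 CPM in E21 ZZ and from 16.4 to 17.7 CPM in E21 DZ. MEF2A was at 42.3 ± 16.1 CPM (SD, n = 6 libraries) in PAX3+ progenitor-like cells, 52.0 ± 19.6 CPM (SD, n = 6) in PAX7/MYF5 progenitor-like cells and 40.6 ± 11.15 CPM (SD, n = 4) in MYOD1+ myoblast-like cells. In myocyte-like cells MEF2A was at 293 and 308 CPM at E18, 148.8 and 135 CPM at E21 and 106 and 113 CPM at E28. MEF2D was at 7.94 ± 4.68 CPM (SD, n = 6), 15.9 ± 4.77 CPM (SD, n = 6) and 26.5 ± 7.45 CPM (SD, n = 4) in the same 3 gates, and at 55.3 ± 11.6 CPM (SD, n = 6) in myocyte-like cells, from 37.0 CPM in E18 DZ to 69.8 CPM in E21 DZ. For both genes every myocyte-like library was above every library of the other skeletal gates. The share of all genes with such a separation was not counted.

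**Figure D1:**
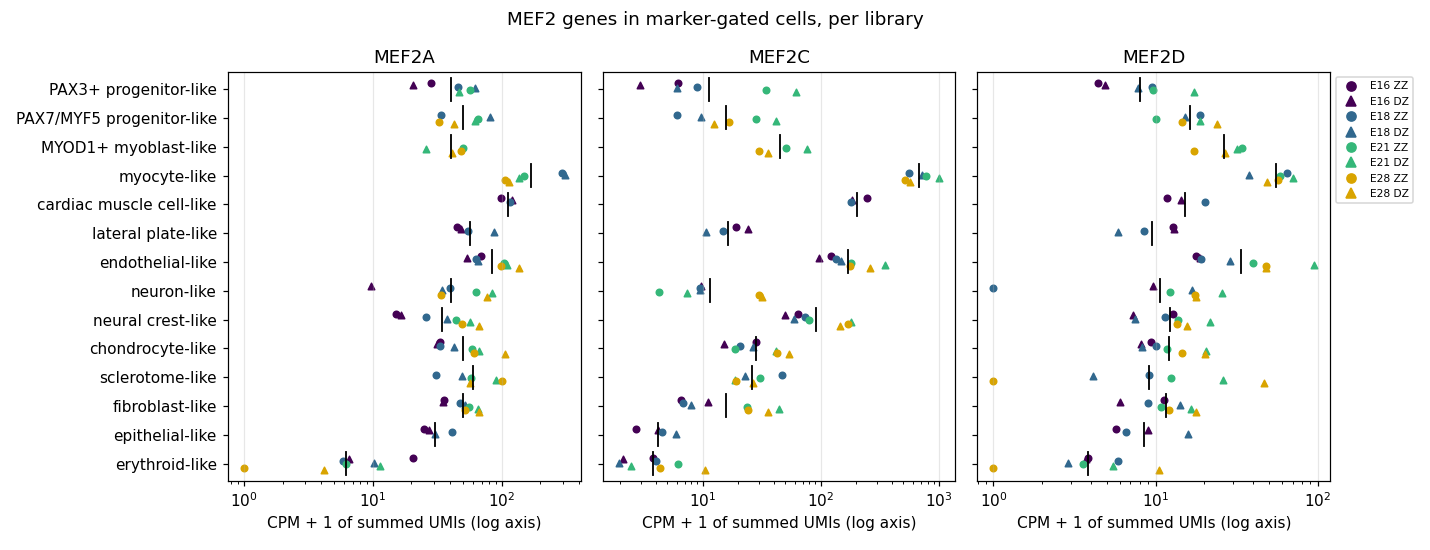
CPM + 1 (log axis) of MEF2A, MEF2C and MEF2D in each gate (rows), with 1 point per library of at least 20 cells, coloured by stage and shaped by cross, and a vertical line at the mean of the log values. MEF2C sits at 519 to 1009 CPM in the myocyte-like gate, at 180 to 245 CPM in the heart gate and at 94.8 to 350 CPM in the endothelial-like gate, against 0.934 to 9.51 CPM in erythroid-like cells.

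Neighbouring skeletal gates were compared with edgeR's quasi-likelihood test on the summed UMIs, with the library as a block and Benjamini-Hochberg adjustment over all 8949 genes tested. Between PAX7/MYF5 and PAX3+ progenitor-like cells no member passed, with log2 fold changes of 0.46 (SE 0.23) for MEF2A, 0.23 (SE 0.35) for MEF2C and 0.80 (SE 0.29) for MEF2D and adjusted p = 0.668, 0.963 and 0.383. In that comparison 0.369% of all genes were called. From PAX7/MYF5 progenitor-like to MYOD1+ myoblast-like cells MEF2C had a log2 fold change of 1.16 (SE 0.33, adjusted p = 0.162), MEF2D of 0.54 (SE 0.26, adjusted p = 0.754) and MEF2A of 0.01 (SE 0.27, adjusted p = 1.0), and 0.592% of all genes were called. From MYOD1+ myoblast-like to myocyte-like cells all 3 members rose, MEF2C by 4.39 on the log2 scale (SE 0.24, adjusted p = 3.63e-14), MEF2A by 1.92 (SE 0.23, adjusted p = 1.46e-07) and MEF2D by 1.50 (SE 0.21, adjusted p = 2.51e-06). In this comparison 17.1% of all genes were called higher. With cells thinned to 1500 UMIs the MEF2D step was 0.76 and did not pass (adjusted p = 0.212). Between the ends of the series, myocyte-like against PAX3+ progenitor-like cells, the log2 fold change was 5.78 for MEF2C (SE 0.24, adjusted p = 7.90e-17), 2.84 for MEF2D (SE 0.24, adjusted p = 2.31e-10) and 2.38 for MEF2A (SE 0.20, adjusted p = 1.37e-10), where 19.3% of all genes were called higher. Scaling to total UMIs without TMM moved the median of all genes in this comparison from -0.03 to -0.32 on the log2 scale and left all 3 members higher.

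Within the skeletal cells, the levels were also set out by the number of myocyte markers. The myocyte-like gate was itself set by at least 3 of these 6 markers. Cells with 3 or more after thinning are therefore all myocyte-like. The series restates part of the comparison of gates and is no separate support for it. Cells of the 4 skeletal gates were thinned to 1500 UMIs each, shallower cells being left out, and grouped by how many of the 6 myocyte markers they then showed. MEF2C was at a median of 15.7 CPM over 8 libraries in cells with no marker, 74.1 CPM over 6 libraries with 1 marker, 160 CPM over 5 libraries with 2, 822 CPM with 3 and 1040 CPM with 4 or more. A MEF2C UMI was found in a median of 1.97% of the cells without a marker and in 75.8% of those with 4 or more. MEF2A went from a median of 39.4 CPM without a marker to 202 CPM with 4 or more, and MEF2D from 8.02 to 40.4 CPM, with the highest MEF2D value at 3 markers (58.8 CPM). The MEF2A median was 98.8 CPM at 2 and 93.0 CPM at 3 markers. From 3 to 4 or more markers MEF2A fell in E18 DZ (321 to 213 CPM) and E21 DZ (175 to 101 CPM) and rose in the other libraries. The largest step in CPM of MEF2C was between 2 and 3 markers in both E21 libraries and in E28 ZZ, and between 3 and 4 or more in E28 DZ (388 to 846 CPM), whereas in E18 DZ MEF2C was already at 696 CPM with 2 markers. At 1500 UMIs per cell, 1 UMI in every cell would be 667 CPM.

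**Figure D2:**
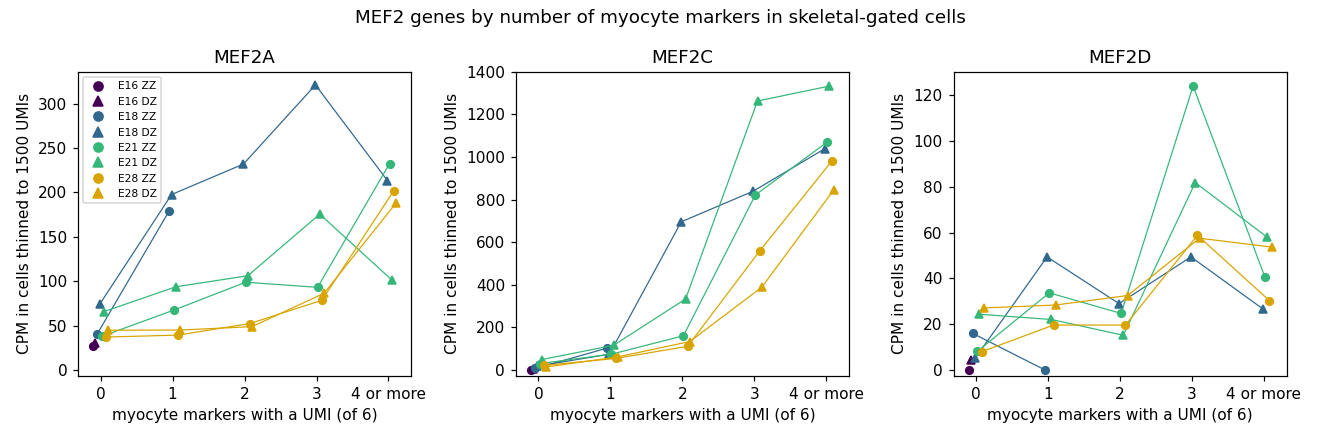
CPM of each member (vertical axes, each with its own scale) in skeletal-gated cells thinned to 1500 UMIs, by the number of the 6 myocyte markers with a UMI (horizontal axis), with 1 line per library and at least 20 cells per point. MEF2C climbs from 0 to 48.7 CPM without a marker to 846 to 1333 CPM with 4 or more, and MEF2A and MEF2D climb less.

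UMIs of all members were rarely found together in thinned myocyte-like cells. Of 1327 myocyte-like cells thinned to 1500 UMIs, 48.1% had no UMI of any member, 40.2% had UMIs of 1 member, 11.2% of 2 and 0.528% of all 3. At this depth a UMI was found in 16.2% of these cells for MEF2A, 41.4% for MEF2C and 6.48% for MEF2D. Without thinning the shares were 43.4%, 66.8% and 27.0%. The split therefore does not tell whether the members are expressed in the same cells. A MEF2C UMI was found in 34.95% to 62.9% of the thinned myocyte-like cells of a library, in 4.58% to 12.2% of MYOD1+ myoblast-like cells and in at most 1.89% of erythroid-like cells, which stand here for background RNA. Without thinning, a MEF2C UMI was found in 1.82% of erythroid-like cells at a median of 6637.5 UMIs per cell.

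MEF2C also made up most of the MEF2 UMIs of myocyte-like cells. Its share of the UMIs of the 3 members was 61.0% to 83.1% over 6 libraries of myocyte-like cells, with a median of 77.1%, against 6.98% to 49.3% over 6 libraries of PAX3+ progenitor-like cells, with a median of 13.6%. The E16 and E18 shares of PAX3+ progenitor-like cells rest on 2 to 16 MEF2C UMIs each. In the 4 libraries with both gates the share was 46.9 percentage points higher in myocyte-like cells on average and higher in 4 of 4. MEF2C was also the majority in every library of cardiac muscle cell-like (57.1% to 69.4%), endothelial-like (54.7% to 63.2%) and neural crest-like cells (57.5% to 73.4%). For myocyte-like against PAX3+ progenitor-like cells the exact two-sided permutation test over sign flips gave p = 0.125, which is the smallest p that 4 pairs can give. A 3′ UMI count does not depend on transcript length, but it depends on how well each gene's 3′ end is annotated, so the share compares gates and not amounts of protein.

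Cardiac muscle cell-like cells were found at E16 and E18, with 40 (ZZ) and 123 (DZ) cells at E16, 20 (ZZ) and 6 (DZ) at E18 and none later. At E16 the MEF2C level was 245 CPM in ZZ and 184 CPM in DZ, and at E18 it was 180 CPM in ZZ. MEF2A was at 97.3, 120 and 116 CPM and MEF2D at 10.8, 13.4 and 19.3 CPM in the same libraries. The MEF2D values rest on 3 to 11 UMIs each. Against PAX3+ progenitor-like cells all 3 members were higher, MEF2C by 4.78 on the log2 scale (SE 0.38, adjusted p = 9.61e-11), MEF2A by 2.03 (SE 0.31, adjusted p = 1.01e-05) and MEF2D by 1.57 (SE 0.51, adjusted p = 0.0228), and 13.8% of all genes were called higher. The call of MEF2D was lost without E16 ZZ (adjusted p = 0.067) or without E16 DZ (adjusted p = 0.261), and also without the block (adjusted p = 0.0893) and in thinned cells (adjusted p = 0.495), whereas MEF2C and MEF2A stayed called without any 1 library. With 1 library left out the MEF2C difference ranged from 4.43 to 6.20, the highest without E18 ZZ.

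Heart and skeletal myocytes shared 1 library, E18 ZZ, in which MEF2C was at 180 CPM in the heart gate (20 cells) and at 557 CPM in the myocyte-like gate (53 cells). MEF2A was at 116 and 293 CPM there and MEF2D at 19.3 and 63.3 CPM. In the fit the difference of cardiac from myocyte-like cells was -0.999 for MEF2C (SE 0.41, adjusted p = 0.0928), -0.35 for MEF2A (SE 0.34, adjusted p = 0.545) and -1.27 for MEF2D (SE 0.51, adjusted p = 0.0877), and 18.9% of all genes were called in either direction. None of the members passed. Without E18 ZZ the MEF2C difference was 0.76 and that of MEF2A 0.35, so that the sign rests on that library, and without the library block MEF2C passed at adjusted p = 0.0157 and a difference of -1.80 and MEF2D at adjusted p = 0.000238 and -2.04. With all gates in the fit both passed, MEF2C at -1.10 (adjusted p = 0.0282) and MEF2D at -1.44 (adjusted p = 0.0102).

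Across the 14 gates with sums, the 3 members had different orders. For MEF2C the order began with myocyte-like (690 ± 185 CPM, SD, n = 6), cardiac muscle cell-like (203 ± 36.5 CPM, SD, n = 3), endothelial-like (182 ± 83.8 CPM, SD, n = 8) and neural crest-like cells (102 ± 53.2 CPM, SD, n = 8), followed by MYOD1+ myoblast-like cells (47.0 ± 20.7 CPM, SD, n = 4). In a fit of all gates, each of the first 4 differed from the next in the order, with adjusted p = 0.0282, 0.0374, 0.000769 and 0.000567 by edgeR. The first of these differences, between the myocyte-like and heart gates, did not pass in the fit of the muscle gates given above (adjusted p = 0.0928), where it turned without E18 ZZ. Below them, chondrocyte-like, sclerotome-like, fibroblast-like, both progenitor gates and lateral plate-like cells had means of 16.1 to 29.9 CPM and no pair of neighbours differed. Lateral plate-like cells were above neuron-like cells (13.5 CPM, adjusted p = 0.000261), and erythroid-like (3.43 CPM) and epithelial-like cells (3.32 CPM) were last.

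For MEF2A the order began with myocyte-like cells (184 ± 91.5 CPM, SD, n = 6), which did not differ beyond their spread from cardiac muscle cell-like cells (111 ± 12.3 CPM, SD, n = 3, adjusted p = 0.804). Cardiac muscle cell-like cells were above endothelial-like cells (86.6 ± 28.9 CPM, SD, n = 8, adjusted p = 0.0097), and these were above sclerotome-like cells (63.4 CPM, adjusted p = 0.00521). The other gates lay between 30.1 and 58.0 CPM with no neighbours that differed, except that epithelial-like cells were above erythroid-like cells (7.26 CPM, adjusted p = 0.0342). For MEF2D the order began with myocyte-like (55.3 CPM), endothelial-like (38.4 ± 25.9 CPM, SD, n = 8) and MYOD1+ myoblast-like cells (26.5 CPM), with adjusted p = 0.0026 and 0.0135 between neighbours. No neighbours below differed, and the fitted differences, which compare gates within libraries, did not always follow the order of the means.

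Endothelial-like cells, gated by PECAM1, CDH5, KDR and other vessel genes, held MEF2C in all 8 libraries, at 120 and 94.8 CPM at E16, 133.3 and 148 CPM at E18, 178 and 350 CPM at E21 and 174 and 260 CPM at E28, in the order ZZ and DZ. Every early library was below every late library, and the share of all genes with such a separation was not counted. Against the mean of the other gates outside muscle, endothelial-like cells were higher by 3.35 for MEF2C (SE 0.17, adjusted p = 1.08e-28), by 1.58 for MEF2D (SE 0.16, adjusted p = 3.38e-14) and by 1.01 for MEF2A (SE 0.15, adjusted p = 1.50e-08) on the log2 scale, where 24.8% of all 11310 genes were called higher. With a mitochondrial limit of 5%, MEF2D (0.76, adjusted p = 0.152) and MEF2A (0.57, adjusted p = 0.105) were no longer called. A MEF2C UMI was found in 12.98% (E16 DZ) to 38.5% (E21 DZ) of the thinned endothelial-like cells of a library, with a median of 17.2% over the 8 libraries. Neural crest-like cells, gated mainly by SOX10, had 63.6 and 48.6 CPM of MEF2C at E16, 72.6 and 58.5 CPM at E18, 78.1 and 178 CPM at E21 and 170 and 145 CPM at E28. The early and late libraries of this gate did not overlap. This was not tested, and the share of all genes that do the same was not counted.

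Neuron-like cells had little MEF2C until E28. Their MEF2C was at 8.72 CPM in E16 DZ, 8.38 and 8.44 CPM at E18, 3.30 and 6.38 CPM at E21 and 29.0 and 30.5 CPM at E28. Against the mean of the other gates outside muscle it was lower by a log2 fold change of -1.90 (SE 0.36, adjusted p = 4.58e-06), with 25.4% of all genes called lower. The difference was -2.51 without E28 DZ and -0.86 without both E21 libraries and stayed called. The differences of MEF2A (-0.04, SE 0.19, adjusted p = 0.90) and MEF2D (-0.18, SE 0.22, adjusted p = 0.509) did not pass and turned to 0.24 and 0.11 without TMM.

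Stages were compared as the 4 late libraries (E21 and E28) against the 4 early libraries (E16 and E18), with the cross as a covariate. Over all cells MEF2C was at 24.4 to 32.8 CPM in the early and 49.4 to 90.7 CPM in the late libraries, MEF2A at 33.3 to 47.3 and 55.1 to 72.4 CPM, and MEF2D at 8.35 to 11.12 and 13.4 to 21.0 CPM. Early and late libraries did not overlap for any member. The share of all genes without such an overlap was not counted. The late libraries were higher by 1.14 for MEF2C (SE 0.15, adjusted p = 0.0027), by 0.71 for MEF2D (SE 0.15, adjusted p = 0.0115) and by 0.47 for MEF2A (SE 0.11, adjusted p = 0.0165) on the log2 scale, and 17.5% of all 14348 genes were called higher. Without both E21 libraries MEF2A was at 0.49 and no longer called (adjusted p = 0.0502). In a whole library, more cells of a type and more RNA per cell cannot be told apart, and the myocyte-like share of cells went from at most 0.98% in the early libraries to between 1.87% and 4.93% in the late ones. Without the myocyte-like cells, MEF2C over all cells was at 20.2 to 26.1 CPM in the early and 27.7 to 52.1 CPM in the late libraries.

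**Figure D3:**
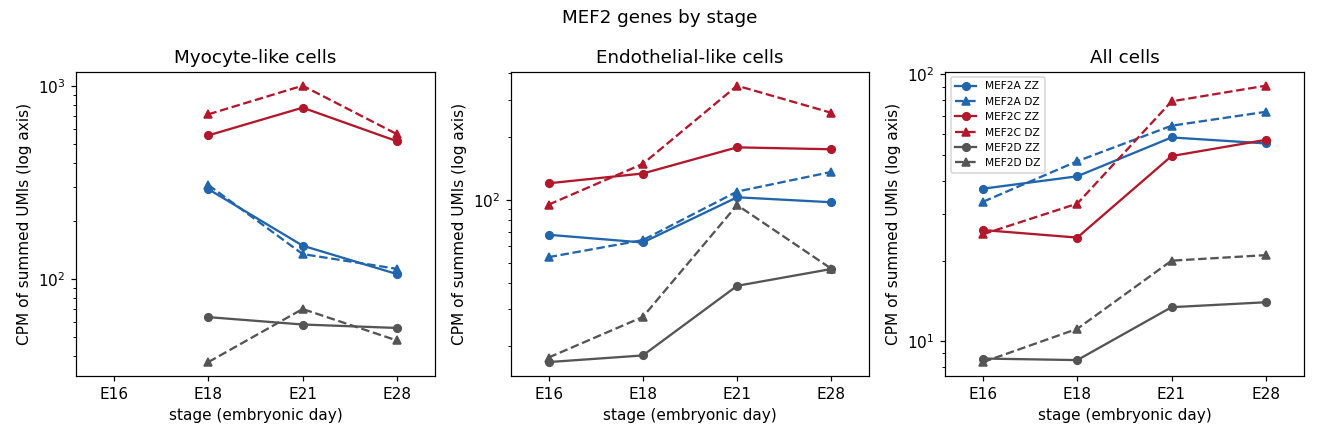
CPM of summed UMIs (log axis) of MEF2A, MEF2C and MEF2D by stage in myocyte-like cells, endothelial-like cells and all cells, with ZZ as circles on solid lines and DZ as triangles on dashed lines. MEF2A falls from 293 and 308 CPM at E18 to 106 and 113 CPM at E28 in myocyte-like cells. It is higher in every late than in every early library of endothelial-like cells, and the share of all genes that do the same was not counted.

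In myocyte-like cells MEF2A was the member that differed between stages. MEF2A fell by 1.15 on the log2 scale from the 2 early libraries with enough cells, both of E18, to the 4 late libraries (SE 0.20, adjusted p = 0.00659), and both E18 libraries were above all late ones. In this comparison 4.33% of all 8586 genes were called lower. The share of all genes with both E18 libraries above all late ones was not counted. The call rests on the pair of E18 libraries and was lost without either of them, with adjusted p = 0.151 without E18 ZZ and 0.195 without E18 DZ at similar sizes (-1.16 and -1.13). With a mitochondrial limit of 5%, which likewise left E18 DZ as the only early sum, it was -1.25 (adjusted p = 0.237). The call was also lost in cells thinned to 1500 UMIs (-0.94, adjusted p = 0.107). MEF2C (0.29, SE 0.27, adjusted p = 0.561) and MEF2D (0.33, SE 0.31, adjusted p = 0.573) did not pass. In endothelial-like cells all 3 members were higher in the late libraries, MEF2D by 1.39 (SE 0.25, adjusted p = 0.00305), MEF2C by 0.83 (SE 0.21, adjusted p = 0.0158) and MEF2A by 0.75 (SE 0.16, adjusted p = 0.00737), where 14.1% of all 8788 genes were called higher. With a mitochondrial limit of 5% a single late sum was left, of 28 cells in E28 DZ and assumed to vary like the others, and MEF2C (1.31, adjusted p = 0.144) and MEF2D (1.52, adjusted p = 0.383) did not pass at larger differences. The MEF2C call was lost in cells thinned to 1500 UMIs (0.82, adjusted p = 0.0502) and without both E21 libraries (0.72, adjusted p = 0.0509), an alternative chosen after seeing the data. The MEF2A difference ranged from 0.68 to 1.69 over the alternatives other than leaving out 1 library. MEF2A was at 53.3 to 68.1 CPM in the early and 97.3 to 136 CPM in the late endothelial-like sums, and MEF2D at 16.8 to 27.6 CPM and 38.9 to 94.4 CPM.

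The cells that supplied the MEF2C UMIs changed with stage. At E16, 48.6% (ZZ) and 44.1% (DZ) of a library's MEF2C UMIs came from endothelial-like cells, which were 7.95% and 9.32% of cells, and 6.54% and 10.5% came from cardiac muscle cell-like cells. At E18, endothelial-like cells supplied 23.0% and 22.9% and myocyte-like cells 18.1% and 21.3%. At E21 and E28, myocyte-like cells supplied 36.3% to 46.9% from 1.87% to 4.93% of cells, and endothelial-like cells 3.81% to 5.90%. Cells in no gate supplied 7.41% to 29.8% of MEF2C UMIs and cells of several lineages 9.14% to 25.4%. MEF2A UMIs were spread more widely, with at most 11.7% of a library's UMIs from myocyte-like cells, 16.6% to 59.5% from cells in no gate and 26.5% and 32.9% from fibroblast-like cells at E28.

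**Figure D4:**
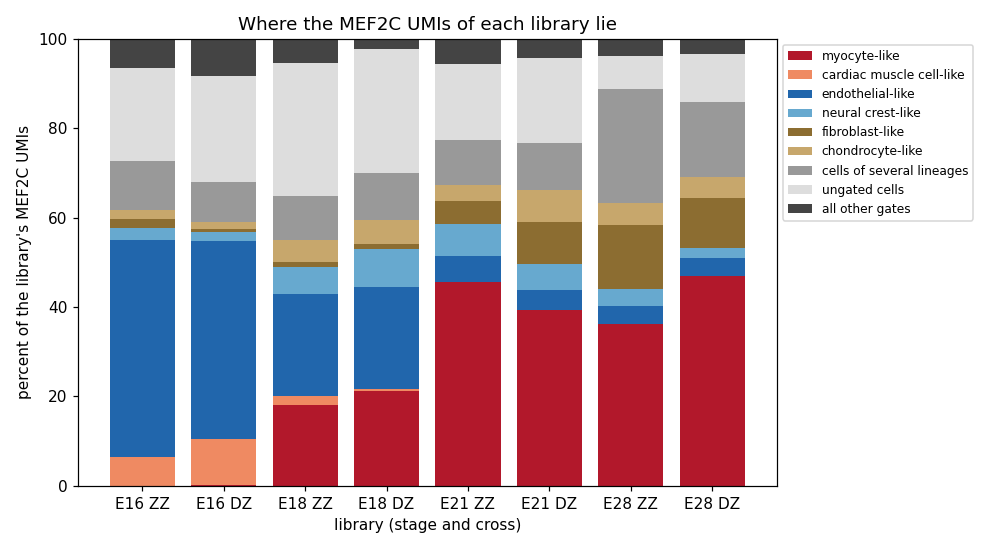
Percent of each library's MEF2C UMIs (vertical axis, stacked to 100) that came from each gate, for the 8 libraries in order of stage. Endothelial-like cells supply 44.1% and 48.6% at E16, and myocyte-like cells 36.3% to 46.9% at E21 and E28.

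The crosses were compared with the stage as a block. In myocyte-like cells no member passed, with DZ against ZZ log2 fold changes of 0.34 for MEF2C (SE 0.16, adjusted p = 0.738), 0.06 for MEF2A (SE 0.16, adjusted p = 0.992) and -0.08 for MEF2D (SE 0.20, adjusted p = 0.992), and 0.326% of all 7982 genes were called. DZ was above ZZ for MEF2C at each of the 3 stages, by 716 against 557, 1009 against 776 and 565 against 519 CPM, which the test did not call. How many of all genes kept the same sign at every stage was not counted. In endothelial-like cells edgeR called no gene (0.0% of 8788), while 621 genes had an unadjusted p under 0.05 and DESeq2 called 5, and the members' log2 fold changes were 0.32 for MEF2C (SE 0.20), 0.04 for MEF2A (SE 0.15) and 0.49 for MEF2D (SE 0.23), with adjusted p = 0.769, 0.99 and 0.712. With 1 library left out, and with it its stage, the MEF2C difference ranged from 0.0783 (E21) to 0.58 (E16). With a mitochondrial limit of 5%, which left both crosses only at E16 and E18, it was 1.59 for MEF2C (adjusted p = 0.104) and 0.73 for MEF2A (adjusted p = 0.804).

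The genes known as MEF2 targets in skeletal muscle moved with the myocyte-like gate. Of 24 such genes, none a gate marker, 21 were in the files and 18 were tested, and 16 of the 18 were higher in myocyte-like than in PAX3+ progenitor-like cells and none lower, with a median log2 fold change of 7.17 against -0.03 for all genes. Of all genes, 19.3% were called higher. MYOZ2, XIRP2, MYOM1, KLHL31, MYPN, CKM, STAC3 and KLHL40 had 0 to 3 UMIs over all PAX3+ progenitor-like sums. They passed the filter on low counts through other sums and could hardly be called lower. The absence of lower genes and the median therefore draw in part on targets that could only rise or stay uncalled. The sarcomere genes ACTA1, the skeletal actin, with 9.97 (SE 0.33, adjusted p = 5.36e-19), MYOM1, an M-band protein, and SMYD1, a methyltransferase needed for sarcomere assembly, with 8.06 (SE 0.34, adjusted p = 7.90e-17), were among those with the largest changes. SMYD1 had 4 UMIs and ACTA1 17 over all PAX3+ progenitor-like sums, so the sizes of their changes rest on few UMIs. ACTA1 was at 0.50 to 9.09 CPM in PAX3+ progenitor-like cells, 2.78 to 6.95 CPM in MYOD1+ myoblast-like cells and 491 to 1740 CPM in myocyte-like cells. SRPK3, a muscle kinase whose start carries the element printed above, was at 7.37 to 21.8 CPM in PAX3+ progenitor-like and at 136 to 191 CPM in myocyte-like cells (log2 fold change 3.95, SE 0.22, adjusted p = 3.72e-14). NR4A1 and PPARGC1A did not pass in this comparison, at 0.92 (SE 0.41, adjusted p = 0.0805) and -1.03 (SE 1.04, adjusted p = 0.478). From MYOD1+ myoblast-like to myocyte-like cells 16 of the 18 were again higher and none lower, with a median of 4.91 against 0.0041 for all genes, of which 17.1% were called higher. The same limit holds here, since the MYOD1+ myoblast-like sums held 0 UMIs of KLHL40, 2 of XIRP2 and 5 of STAC3.

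Some of these fold changes rest on few UMIs in the PAX3+ progenitor-like sums, where each UMI was set against the floor or given with its counting interval. MYOZ2, a Z-disc protein that binds calcineurin, and XIRP2, an actin-binding protein, had no UMI there and were at 48.7 to 513 CPM and 48.0 to 148 CPM in myocyte-like cells. With a floor of 3 counts over all PAX3+ progenitor-like sums, MYOZ2 was at least 880-fold higher and XIRP2 at least 247-fold higher. MYOM1 had 1 UMI there against 1500 in myocyte-like cells, a ratio of 1142 (95% interval 205 to 45135), and MYPN, a Z-disc protein, 1 against 582, a ratio of 443 (95% interval 79.2 to 17530). With the genes without UMIs set to their bounds, the median of the 18 targets stayed at 7.17 on the log2 scale in the myocyte-like gate and went from 4.64 to 3.41 in the heart gate.

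In cardiac muscle cell-like cells 13 of the 18 skeletal targets tested were higher than in PAX3+ progenitor-like cells and none lower, with a median log2 fold change of 4.64 against -0.07 for all genes and 13.8% of all genes called higher. The targets with 0 to 3 UMIs in the PAX3+ progenitor-like sums could hardly be called lower here either. TNNC1, the slow and cardiac troponin C, was higher by 8.78 (SE 0.35, adjusted p = 1.79e-17). NR4A1 (2.85, SE 0.47, adjusted p = 2.71e-05) and PPARGC1A (5.83, SE 0.94, adjusted p = 2.35e-05), which did not pass in myocyte-like cells, were called here. KLHL40, STAC3, JSRP1, MYPN and XIRP2 did not pass, and XIRP2 had no UMI in either gate. Of the 13 genes known as MEF2 targets in heart or vessels that are no gate marker, 7 were tested. Of these, 6 were higher than in PAX3+ progenitor-like cells in each of the muscle types taken separately. The medians of the 7 were 7.23 in cardiac and 4.77 in myocyte-like cells, against -0.07 and -0.03 for all genes. In these comparisons 13.8% and 19.3% of all genes were called higher. MYL2, the ventricular and slow myosin regulatory light chain, rose by 12.23 (SE 0.34, adjusted p = 4.04e-21) in cardiac and by 6.77 (SE 0.29, adjusted p = 1.07e-16) in myocyte-like cells, and MYH7, the slow and ventricular myosin heavy chain, by 8.83 (SE 0.27, adjusted p = 4.28e-20) and 4.77 (SE 0.26, adjusted p = 1.25e-14). MYL2 had 9 UMIs over all PAX3+ progenitor-like sums, against 733 in the cardiac and 3489 in the myocyte-like sums. The size of its fold changes therefore rests on few UMIs. MYH7 was at 7171 to 9297 CPM in the cardiac and 80.8 to 432 CPM in the myocyte-like sums. The gene of this list that did not pass was KLF4 in the cardiac and MYOCD in the myocyte-like comparison. Endothelial-like cells, against the mean of the other gates outside muscle, had 9 genes of this list tested. Of these 2 were higher and 2 lower, with a median of -1.09 against -0.04 for all genes. Of the 18 skeletal targets tested there, 2 were higher and 3 lower. Of all 11310 genes there, 24.8% were called higher and 5180 were called in either direction.

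**Figure D5:**
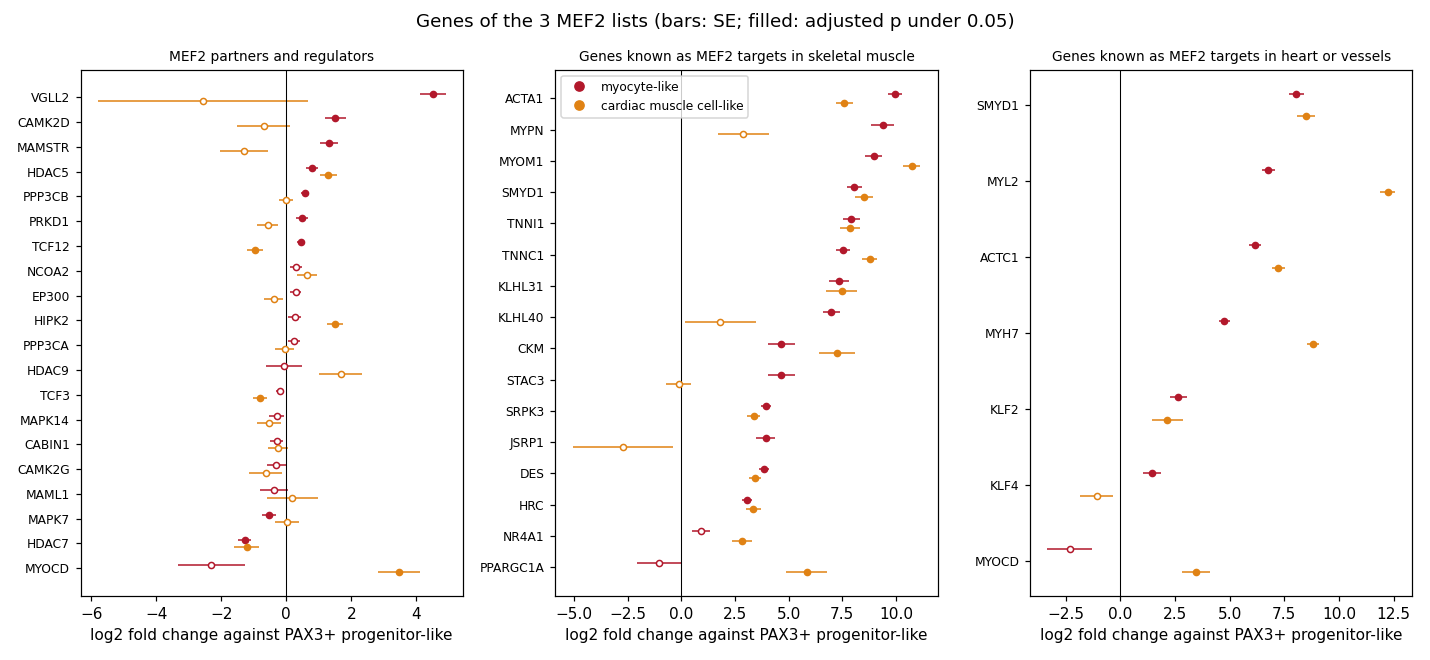
Log2 fold change against PAX3+ progenitor-like cells (horizontal axes) of the tested genes of the 3 lists in the myocyte-like (red) and heart (orange) gates, with bars of 1 SE and filled points where the adjusted p is under 0.05. MYOZ2 and XIRP2, which had no UMI in PAX3+ progenitor-like cells, are left out. Most skeletal targets lie to the right in both muscle types, while VGLL2 is filled in myocyte-like cells and MYOCD in cardiac muscle cell-like cells.

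Partners and regulators of MEF2 were called in both directions, as were all genes. Of 23 genes, 20 were tested, and 7 were higher and 2 lower in myocyte-like than in PAX3+ progenitor-like cells, with a median of 0.25, where 19.3% of all genes were called higher and 18.2% lower. VGLL2, a vestigial-like cofactor of skeletal muscle, rose by 4.50 (SE 0.39, adjusted p = 1.89e-09), CAMK2D, a calcium-dependent kinase, by 1.50 (SE 0.32, adjusted p = 0.000502), MAMSTR, a MEF2 coactivator, by 1.32 (SE 0.27, adjusted p = 0.000316) and HDAC5, a class IIa deacetylase, by 0.80 (SE 0.19, adjusted p = 0.00108). HDAC7, another class IIa deacetylase, fell by 1.28 (SE 0.21, adjusted p = 1.25e-05), from 25.7 to 70.9 CPM in PAX3+ progenitor-like cells to 11.7 to 24.0 CPM in myocyte-like cells, and MAPK7, the kinase ERK5, fell by 0.53 (SE 0.21, adjusted p = 0.0485). VGLL2 was at 0 and 2.18 CPM in the myocyte-like cells of E18 and at 192 to 589 CPM in those of E21 and E28. In cardiac muscle cell-like cells 3 of the 20 were higher and 3 lower, where 13.8% of all genes were called higher and 11.7% lower. MYOCD, the cardiac and smooth muscle coactivator, rose there by 3.48 (SE 0.65, adjusted p = 0.000146), HIPK2 by 1.50 (SE 0.26, adjusted p = 5.54e-05) and HDAC5 by 1.29 (SE 0.26, adjusted p = 0.000415). HDAC7, TCF12 and TCF3 were lower there, with -1.22 (SE 0.39), -0.96 (SE 0.23) and -0.80 (SE 0.21) and adjusted p = 0.0209, 0.00238 and 0.0056. TCF12, an E protein that pairs with the MyoD family, was higher in myocyte-like cells by 0.44 (SE 0.12, adjusted p = 0.0037). MYOCD was at 21.6 to 35.3 CPM in the cardiac sums and gave 2 UMIs over all myocyte-like sums.

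The genes whose levels followed each member most closely were ranked by Pearson correlation of mean log2(CPM + 1) over the 14 gates, among 10624 genes with at least 10 CPM in a gate. The gates share libraries, so these are descriptions. MEF2A was followed by ST6GALNAC4 (r = 0.972), NDUFA8 (r = 0.928), ENTPD4 (r = 0.919), TMEM134 (r = 0.915) and CHRNB1 (r = 0.915), of which CHRNB1 is a subunit of the muscle acetylcholine receptor. MEF2C was followed by SH3KBP1, IQSEC1, FILIP1, IL17B and INPP4B, with r from 0.842 to 0.855. MEF2D was followed by TUBB6 (r = 0.924), ARHGEF6, SH3GLB1, IQSEC1 and ATF6 (r = 0.898). FILIP1, a filamin-binding protein, was at a mean of 58.8 CPM in myocyte-like, 86.6 CPM in cardiac muscle cell-like and 94.6 CPM in endothelial-like cells and at 0.163 CPM in PAX3+ progenitor-like cells. The members followed each other less closely, with r = 0.779 for MEF2A and MEF2C, 0.779 for MEF2A and MEF2D and 0.838 for MEF2C and MEF2D.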

How the data were processed

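Single-cell RNA-seq was measured in 8 libraries. Cell Ranger was run by the authors against Sscrofa11.1. The deposited values are raw UMI counts, and the matrices name a different Cell Ranger release for E16 than for the other stages, so that the release is tied to E16. Barcodes with fewer than 200 genes, over 30000 UMIs or over 10% mitochondrial UMIs were left out, as were the 8247 of 82394 remaining with the highest Scrublet scores (scanpy 1.11.5, Python 3.11.15). Cells were gated by marker genes and UMIs summed per gate and library, with at least 20 cells per sum. Sums were tested with edgeR 4.0.16 (R 4.3.3, quasi-likelihood test, TMM, default filter on low counts) and called at an adjusted p under 0.05. DESeq2 1.42.0 was an alternative. Floors for genes without UMIs are 3 counts over the group, and 95% intervals are exact and cover counting error only. Of 91 marker symbols, 82 were found, and 680 identifiers without a symbol were named from a gene table. Named genes are the 3 members, the called list genes with the largest changes (up to 6 in myocyte-like and 3 in cardiac cells per list), groups of up to 5, and the 5 genes most like each member. The members, gates and lists were chosen with earlier results of these data known. The fit was tested on simulated counts with known changes before use.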

Additional observations from a re-analysis of the deposited data

Results flagged for a closer look

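The change of MEF2A with stage differed between myocyte-like and endothelial-like cells. In a joint fit of the 2 gates by edgeR, the late against early log2 fold change was lower in myocyte-like than in endothelial-like cells by a difference of -1.91 (SE 0.25, adjusted p = 0.000363), and 898 of 8625 genes differed in this way. For MEF2C the difference was -0.42 (SE 0.24, adjusted p = 0.302) and for MEF2D -0.87 (SE 0.41, adjusted p = 0.213), and neither passed. The early myocyte-like sums were both of E18, while the early endothelial-like sums were of E16 and E18.

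A library stood apart from the other 3 of its stage group for MEF2D in 3 cases among the 15 groups looked at, by its gap to the nearest library over the range of the group (Dixon's 95% critical value). Chance flags about 1 in 20 groups, and the cases are not independent, since the values over all cells include the endothelial-like cells. MEF2D was at 27.6 CPM in the endothelial-like cells of E18 DZ, above the other early libraries, and at 94.4 CPM in those of E21 DZ, above the other late libraries. Over all cells MEF2D was at 11.12 CPM in E18 DZ, above the other early libraries.

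Macrophage-like cells entered no comparison, because no library held 20 of them. In 69 such cells of 5 libraries MEF2C was at 303 CPM (exact 95% interval 250 to 364), MEF2A at 163 CPM (125 to 209) and MEF2D at 44.8 CPM (26.1 to 71.7). A MEF2C UMI was found in 69.6% of these cells at a median of 5444 UMIs per cell, against 1.82% of erythroid-like cells at a median of 6637.5 UMIs per cell. The intervals cover counting error only.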

How the results depend on the processing

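The 40 member results were recomputed under up to 20 alternatives, up to 8 of which left out 1 library each. Leaving out both E21 libraries was chosen after seeing the data. Under the other alternatives 393 recomputed values kept their direction and side of the threshold, 32 turned, 15 lost and 10 gained a call. With a library left out 292 kept both, 18 turned, 4 lost and 2 gained a call. The values below are log2 fold changes, and the cause of each change was not tested. The MEF2C rise from PAX3+ progenitor-like or MYOD1+ myoblast-like to myocyte-like cells kept its call under all 20.

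Without the library or stage block, MEF2A from PAX7/MYF5 progenitor-like to MYOD1+ myoblast-like cells was -0.30, neuron-like MEF2A 0.14 and MEF2D 0.14, cardiac MEF2D against PAX3+ progenitor-like cells 1.09 (adjusted p = 0.0893), and cardiac against myocyte-like cells passed for MEF2C at -1.80 and for MEF2D at -2.04 (adjusted p = 0.000238). Without TMM, MEF2A to MYOD1+ myoblast-like cells was -0.0113 and neuron-like MEF2A and MEF2D were 0.24 and 0.11. DESeq2 gave -0.0273 for MEF2A to MYOD1+ myoblast-like cells. Without the filter on low counts this was -0.0114, MEF2C there passed at 1.14, and cardiac against myocyte-like MEF2C passed at -1.04. With all gates in the fit, PAX7/MYF5 against PAX3+ progenitor-like cells was -0.0229 for MEF2A and -0.0305 for MEF2C, MEF2A to MYOD1+ myoblast-like cells -0.32, and cardiac against myocyte-like MEF2C and MEF2D passed at -1.10 and -1.44.

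With a mitochondrial limit of 5%, with one more marker per gate and with at least 50 cells per sum the heart gate was left with E16 DZ alone. These cardiac values therefore rest on 1 library. E16 DZ holds no myocyte-like sum, so those against myocyte-like cells also have no shared block. With the limit of 5% the late endothelial-like and early myocyte-like groups also fell to 1 library. There MEF2A to MYOD1+ myoblast-like cells was -0.075, cardiac MEF2D against PAX3+ progenitor-like cells 0.77 and no longer called, cardiac against myocyte-like MEF2A 0.36 and MEF2C 4.14 (SE 2.43). Cardiac MEF2C against PAX3+ progenitor-like cells was 10.16 there, and 3.96 to 10.16 over the alternatives other than leaving out 1 library. Not called there were endothelial-like MEF2A (0.57) and MEF2D (0.76), the late difference of MEF2A in myocyte-like cells (-1.25) and those of MEF2C (1.31) and MEF2D (1.52) in endothelial-like cells, and neuron-like MEF2A was 0.069. With one more marker per gate, MEF2C in PAX7/MYF5 against PAX3+ progenitor-like cells was -0.078, to MYOD1+ myoblast-like cells it passed at 1.74, cardiac MEF2D was 2.65 (adjusted p = 0.0558), cardiac against myocyte-like MEF2A 0.14 and MEF2C 1.09, neuron-like MEF2D passed at -0.55, and DZ against ZZ MEF2A in myocyte-like cells was -0.10. Keeping cells of 2 lineages gave -0.13 for MEF2C in PAX7/MYF5 against PAX3+ progenitor-like cells.

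With cells thinned to 1500 UMIs, MEF2A to MYOD1+ myoblast-like cells was -0.50, the step of MEF2D to myocyte-like cells 0.76 (adjusted p = 0.212), cardiac MEF2D 1.41 (adjusted p = 0.495), neuron-like MEF2A 0.0768 and MEF2D 0.0606, the late difference in myocyte-like cells -0.94 for MEF2A (adjusted p = 0.107), -0.17 for MEF2C and -0.0894 for MEF2D, that of MEF2C in endothelial-like cells 0.82 (adjusted p = 0.0502), and DZ against ZZ 0.12 for MEF2D in myocyte-like and -0.10 for MEF2A in endothelial-like cells. With at least 50 cells per sum, cardiac MEF2D was 1.92 (adjusted p = 0.149), cardiac against myocyte-like MEF2A 0.38 and MEF2C 1.02, and DZ against ZZ MEF2A in endothelial-like cells -0.0194. Without both E21 libraries, MEF2C to MYOD1+ myoblast-like cells passed at 1.51, cardiac against myocyte-like MEF2C passed at -1.52, the late difference of MEF2C was -0.16 in myocyte-like and 0.72 (adjusted p = 0.0509) in endothelial-like cells, that of MEF2A over all cells 0.49 (adjusted p = 0.0502), and DZ against ZZ MEF2A in endothelial-like cells -0.0194.

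With 1 library left out, the ranges of results that changed were -0.0271 to 0.61 for MEF2C in PAX7/MYF5 against PAX3+ progenitor-like cells, -0.24 to 0.28 for MEF2A to MYOD1+ myoblast-like cells, and 1.32 to 1.91 for cardiac MEF2D. Cardiac against myocyte-like cells ranged from -0.75 to 0.35 for MEF2A, -1.25 to 0.76 for MEF2C and -1.50 to -0.77 for MEF2D, where MEF2C passed without E21 DZ (adjusted p = 0.0217) and MEF2D without E28 DZ (adjusted p = 0.0468). Neuron-like MEF2A ranged from -0.19 to 0.0011, and the late difference in myocyte-like cells from -1.25 to -1.06 for MEF2A and -0.0792 to 0.81 for MEF2D. DZ against ZZ ranged from -0.40 to 0.0764 for MEF2D in myocyte-like and -0.0666 to 0.21 for MEF2A in endothelial-like cells. Over the alternatives other than leaving out 1 library, the number of called genes went from 33 to between 7 and 217 for PAX7/MYF5 against PAX3+ progenitor-like cells (60 without the block), from 53 to between 6 (without the block) and 246 to MYOD1+ myoblast-like cells, from 2760 to between 1020 and 3352 to myocyte-like cells, from 3355 to between 1304 and 4121 for myocyte-like and from 2280 to between 447 and 2638 for cardiac against PAX3+ progenitor-like cells, and from 1692 to between 305 and 2580 for cardiac against myocyte-like cells. It went from 5180 to between 1309 and 5616 for endothelial-like and from 6496 to between 3694 and 7354 for neuron-like cells, from 785 to between 10 and 1941 for the late difference in myocyte-like and from 2282 to between 250 and 2939 in endothelial-like cells, and from 26 to between 0 and 69 and from 0 to up to 100 for DZ against ZZ in these 2 gates. With 1 library left out, the counts went down to 9 (without E21 ZZ) for PAX7/MYF5 against PAX3+ progenitor-like cells, 18 (without E28 DZ) to MYOD1+ myoblast-like cells, 1402 and 1096 (without E16 DZ) for cardiac against PAX3+ progenitor-like and myocyte-like cells, 27 (without E18 DZ) for the late difference in myocyte-like cells, where the highest was 957, and 1425 in endothelial-like and 3058 over all cells (both without E16 DZ; 4980 with all libraries, up to 4676 with 1 left out). DZ against ZZ gave 8 to 68 genes in myocyte-like and 0 to 8 in endothelial-like cells. MEF2D in the cardiac gate rests on 3 to 11 UMIs per library.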
